A study of Oryza sativa with 8 samples.

Results

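The comparison described here is Ox1-LN against Ox1-HN in the NN field, that is, the effect of a low parent seed N content on leaf DNA methylation of the OsNAR2.1 overexpression line when the filial plants received no N fertilizer. Its members are all differentially methylated regions (DMRs) that the authors listed for this pair of libraries, 19765 of the 100479 DMRs summed over the 4 lists of the series, and all genes of the matching gene table. That table holds 7837 differentially methylated genes (DMGs), which is 40.9% of the 19182 genes found in at least 1 of the 4 gene tables. Genes without a DMR in any comparison are not in these tables, so this share is not a share of all rice genes.

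Whole-genome bisulfite sequencing was carried out on 8 libraries of rice (Oryza sativa ssp. japonica), 1 for each combination of line, parent seed and field. Ox1 is a single line that carries OsNAR2.1 under the OsNAR2.1 promoter in the cultivar Wuyungeng 7 (WYG7), and WYG7 itself is the untransformed line. Seeds of low N content (LN, called LPSN as a class) came from parents grown without N fertilizer and seeds of high N content (HN, HPSN) came from parents grown with it. The filial plants grew in a field without N (NN field, 0 kg N per ha) or with N (HN field, 300 kg N per ha). The labels call the tissue shoot, while the methods describe leaves of mature plants, and the number of plants in a library is not given. Each side of the comparison is 1 library, so no difference has a replicate error, no test across samples was possible and no p-value is given.

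A DMR called hyper has a higher methylation level in the LN library than in the HN library, and a hypo-DMR a lower one. The lists do not name the library that served as control; this reading follows the methods, where a change is relative to the control group, and a section heading and the body text of the study differ in the direction they give for Ox1. Were the HN library the one set against LN, every direction below would be turned round and 66.3% of the DMRs would be hyper. Cytosine methylation in plants is laid down in the CG, CHG and CHH contexts, by a maintenance methyltransferase (MET1), chromomethylases (CMT) and domain rearranged methyltransferases (DRM), the last guided by small RNAs. It is dense over transposable elements and also occurs within the bodies of many genes. OsNAR2.1 is a partner protein of the high-affinity nitrate transporters of the NRT2 family and is needed for their function in nitrate uptake. The files carry only positions and directions, with no methylation level, cytosine context, coverage or p-value, so the depth behind a single DMR is unknown and the size of a change cannot be given. Neither the labelled tissue nor the transgene could be checked from them.

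Hypo-DMRs outnumbered hyper-DMRs in Ox1-LN relative to Ox1-HN in the NN field. There were 6664 hyper-DMRs and 13101 hypo-DMRs, so that 33.7% of the DMRs were hyper (95% Wilson interval 33.1% to 34.4%, which here and below covers counting error over DMRs only). The same seed comparison gave 75.4% hyper-DMRs in Ox1 in the HN field, 64.5% in WYG7 in the NN field and 45.9% in WYG7 in the HN field. The 4 comparisons use different libraries, and with 1 library a side these differences were not tested.

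The excess of hypo-DMRs was present on each of the 12 chromosomes. The hyper share lay between 31.5% on chromosome 7 and 36.1% on chromosome 12. Chromosome 4 held the most DMRs, with 750 hyper-DMRs and 1536 hypo-DMRs, and also had the highest density at 64.4 DMRs per Mb, followed by chromosome 5 with 63.6 per Mb. Chromosomes 2 and 3 had the lowest densities, with 43.6 and 43.7 DMRs per Mb. Densities were thus more unequal among chromosomes than the direction of the change was.

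**Figure D1:**
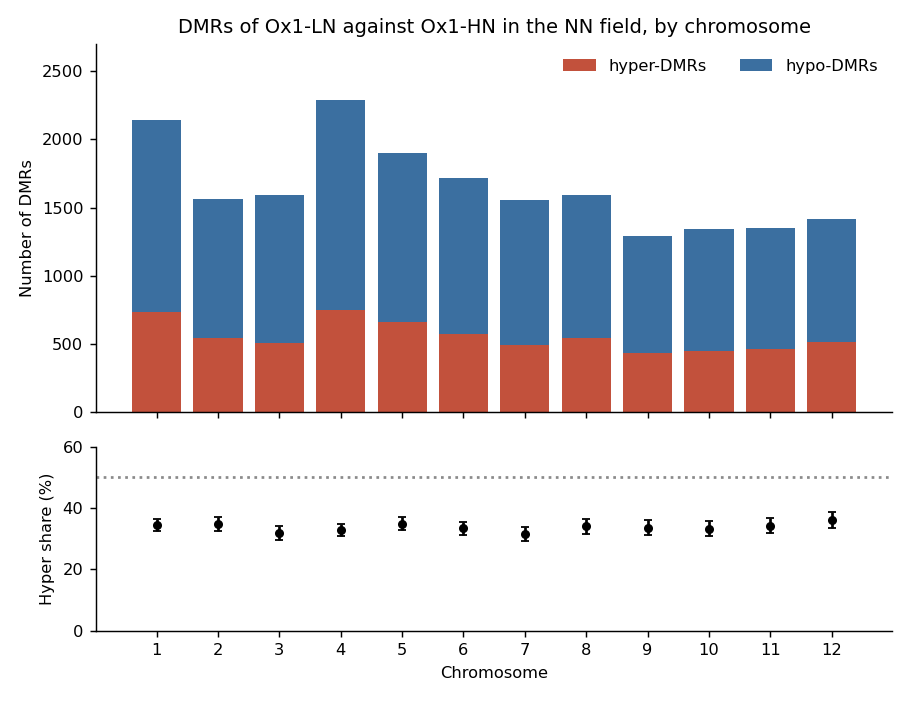
Number of hyper- and hypo-DMRs (upper panel, stacked bars) and percentage of DMRs that were hyper (lower panel, points with 95% Wilson intervals) on each of the 12 chromosomes for Ox1-LN against Ox1-HN in the NN field; the dotted line marks 50%. The hyper share lay between 31.5% and 36.1% on every chromosome, while the number of DMRs was largest on chromosomes 4 and 1.

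Hypo-DMRs were also the longer ones. Their median length was 234 bp, against 212 bp for hyper-DMRs, and all DMRs together covered 5.43 Mb, of which 3.72 Mb were hypo. The hyper share fell along the length classes. It was 37.2% (35.8% to 38.7%) among the 4363 DMRs of 100 to 149 bp, 34.2% (33.0% to 35.5%) at 200 to 299 bp, 29.8% (28.4% to 31.2%) at 300 to 499 bp and 19.4% (13.1% to 27.9%) among the 108 DMRs of 1000 bp or more, of which 21 were hyper and 87 hypo. The intervals of the shortest and the longest class do not overlap.

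The longest DMR was a hypo-DMR of 2258 bp at chr4:21479975-21482232 (IRGSP-1.0, as are all positions here), inside the interval of LOC_Os04g35320. It overlapped 2 hypo-DMRs of Ox1 in the HN field and 1 hypo-DMR of WYG7 in the HN field, whereas in WYG7 in the NN field the same stretch held 2 hypo-DMRs and 1 hyper-DMR. The next in length, at chr7:5378036-5380225 (2190 bp) and chr4:426213-428358 (2146 bp), overlapped DMRs of the other 3 lists as well, with hyper-DMRs among those of Ox1 in the HN field. The longest hyper-DMR measured 1364 bp, at chr7:13233685-13235048 in LOC_Os07g23440, and overlapped no DMR of the other 3 lists. The same was true of 2 more of the 5 longest hyper-DMRs in a DMG, those of 1208 bp at chr4:1107944-1109151 and of 1166 bp at chr12:13227471-13228636.

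Neighbouring DMRs lay at very unequal distances. The median gap from the end of a DMR to the start of the next was 5437 bp, while the nearest 10% of neighbours were within 209 bp and the farthest 10% beyond 53583 bp. Of 19753 neighbouring pairs, 5184 (26.2%) were less than 1 kb apart. In the other lists this share was 26.7% (Ox1 in the HN field), 26.2% (WYG7 in the NN field) and 33.4% (WYG7 in the HN field), so that close neighbours were about as common here as in the first 2 of these lists. The largest gap was 426 kb, at chr4:15408890-15835013, and none of the other 3 lists had a DMR in it either. The second largest, 382 kb at chr1:35751685-36133597, held 10 DMRs of Ox1 in the HN field, 8 of WYG7 in the NN field and 4 of WYG7 in the HN field. The median gaps of these lists were 4374, 4514 and 3085 bp, in the same order, so DMRs were sparse in this stretch there too.

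DMRs next to each other carried the same direction about as often as the direction shares alone would give. Over all pairs 54.9% had the same direction, and a hyper share of 33.7% gives 55.3% by arithmetic if neighbours were independent. Within this total the share depended on the gap. It was 72.2% (66.5% to 77.2%) for the 266 pairs that overlapped, always by 4 bp or less, fell to 50.8% (48.7% to 52.9%) for the 2142 pairs 100 to 499 bp apart, and was 58.0% (55.6% to 60.3%) at 500 to 999 bp and 57.1% (55.7% to 58.6%) at 1000 to 4999 bp. DMRs 100 to 499 bp apart were therefore of opposite direction more often than the direction shares give. The same dip at short gaps was found in Ox1 in the HN field (55.7% at 100 to 499 bp, against 62.9% from its shares) and in WYG7 in the NN field (48.5% against 54.2%), but in WYG7 in the HN field close pairs shared their direction more often (58.9% against 50.3%). An overlap of at most 4 bp between separate calls may depend on how the caller placed its borders, which was not tested.

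**Figure D2:**
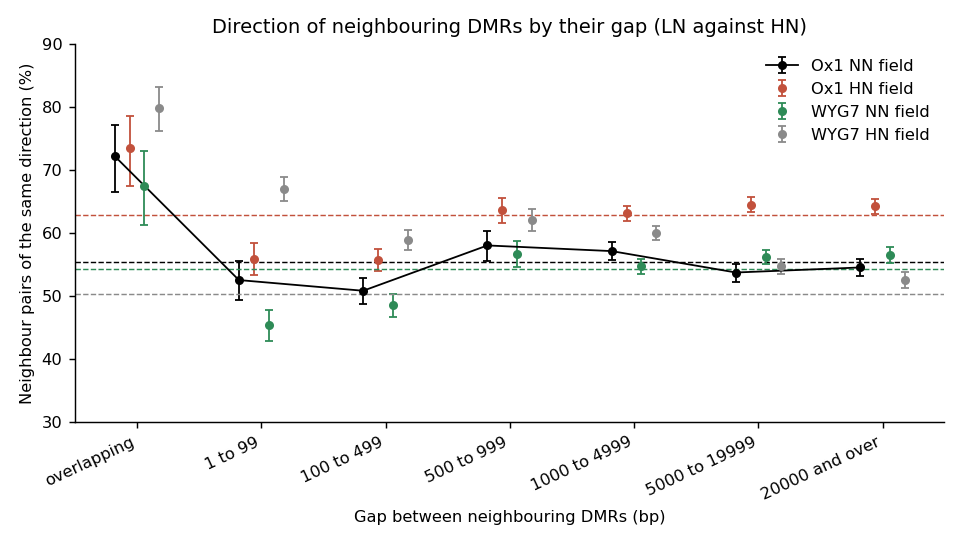
Percentage of neighbouring DMR pairs with the same direction (vertical axis, from 30% to 90%) by the gap between them in bp (horizontal axis), for the 4 comparisons of LN with HN; bars are 95% Wilson intervals, dashed lines give the share that follows from each list's hyper share, and pairs with no base between them (19 in Ox1 in the NN field) are left out. The black points of Ox1 in the NN field lie at 72.2% for overlapping pairs and at 50.8% for gaps of 100 to 499 bp, below their dashed line at 55.3%.

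Joining neighbours less than 1 kb apart gave 3100 clusters of at least 2 DMRs, which held 8284 DMRs or 41.9% of the list. Of these clusters 1752 held both directions, 1103 were all hypo and 245 all hyper. The share of DMRs in clusters was 43.9% in Ox1 in the HN field and 43.1% in WYG7 in the NN field. It was 51.0% in WYG7 in the HN field, so that the present share was the lowest of the 4. There were 241 clusters of 5 or more DMRs, beside 244 in Ox1 in the HN field and 232 in WYG7 in the NN field. WYG7 in the HN field had 554, and the present list is the shortest of the 4. The largest cluster held 17 DMRs in 10357 bp, at chr3:20332045-20342401, with 4 hyper-DMRs and 13 hypo-DMRs across 3 listed genes. The next, at chr6:16665211-16675774, held 4 hyper-DMRs and 12 hypo-DMRs across 3 listed genes. A further cluster, at chr1:35037409-35046467, held 15 DMRs in 9059 bp and all of them were hypo. This was the largest cluster without any change of direction among those examined in detail, the 10 with the most DMRs.

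Long stretches of a single direction were hypo. The longest run of consecutive hypo-DMRs had 25 members over 371 kb, at chr2:11251386-11622272, from LOC_Os02g19330 to LOC_Os02g19780, with 10 listed genes. In the same stretch 18 of 26 DMRs of Ox1 in the HN field, 21 of 32 of WYG7 in the NN field and 6 of 22 of WYG7 in the HN field were hyper. Over the whole of these lists the hyper shares were 75.4%, 64.5% and 45.9%, in the same order. The counts here and for the next runs are to be read beside these shares. The second longest had 18 hypo-DMRs over 280 kb at chr10:12630653-12910984, where 25 of 30 DMRs of Ox1 in the HN field and 26 of 31 of WYG7 in the NN field were hyper, beside 8 of 21 of WYG7 in the HN field. Another, of 17 hypo-DMRs, spanned only 28.1 kb at chr1:35020760-35048828 and contains the all-hypo cluster on chromosome 1. There 7 of 10 DMRs of Ox1 in the HN field, 5 of 10 of WYG7 in the NN field and 6 of 11 of WYG7 in the HN field were hyper. The longest run of hyper-DMRs had 9 members over 204 kb, at chr12:23656790-23860700. With 66.3% of DMRs hypo, long hypo runs are more frequent than long hyper runs without any clustering, and the runs were picked for their length.

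In windows of 500 kb the number of DMRs ranged from 0 to 76, with a median of 25 over 750 windows. The densest, chr5:11500001-12000000, held 21 hyper-DMRs and 55 hypo-DMRs and 22 listed genes. It was followed by chr6:18000001-18500000 with 25 hyper-DMRs and 48 hypo-DMRs, and by chr4:10000001-10500000 with 24 and 46. The densest windows were also rich in DMRs in the other lists, with 75, 72 and 82 DMRs in the chromosome 5 window in Ox1 in the HN field, WYG7 in the NN field and WYG7 in the HN field. The most listed genes, 31, were in the window chr5:10000001-10500000, which held 28 hyper-DMRs and 39 hypo-DMRs. Of the 706 windows with at least 10 DMRs only 33 had more hyper- than hypo-DMRs. The highest hyper share was 75.0% (9 of 12 DMRs, at chr8:3000001-3500000), and the lowest was 0 of 10 DMRs at chr3:1500001-2000000. In that chromosome 3 window 80.0% of 15 DMRs of Ox1 in the HN field were hyper, beside 75.4% over its whole list.

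DMRs within genes were hypo more often than those between them. Of the 19765 DMRs, 12314 (62.3%) lay in the interval of a listed gene, which comprises the gene body and a promoter of 1 kb, with an overlap of at least 52 bp. Of these DMRs 30.5% (29.7% to 31.3%) were hyper. The other 7451 DMRs (37.7%) did not meet this rule for an interval of any of the 4 tables, 198 of them with an overlap below 52 bp, and of these 7451 DMRs 39.1% (38.0% to 40.2%) were hyper. Their median distance to the nearest interval was 2785 bp and 2147 were within 1000 bp of one. DMRs in genes were also longer, with a median of 239 bp, against 204 bp outside. A longer DMR meets the rule of 52 bp more easily, so a difference in this direction is built into the rule. A DMR could belong to several genes, since 462 lay in 2 listed genes and 6 in 3, as the hyper-DMR at chr4:4123038-4123411 and the hypo-DMR at chr5:16947502-16948198 did. Within intervals of at least 3000 bp, 39.4% of hyper-DMRs and 36.2% of hypo-DMRs had their centre within 1000 bp of an end.

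By direction, 3295 genes (17.2% of the genes of any table) had at least 1 hyper-DMR and 5907 (30.8%) at least 1 hypo-DMR. Of the 7837 DMGs, 1930 (24.6%) had hyper-DMRs only, 4542 (58.0%) had hypo-DMRs only and 1365 (17.4%) had both. The files pair the gene identifiers with no gene names, and the gene table given with the data does not use these identifiers, so that a function can be stated only for loci that the study itself names.

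Most DMGs rested on a single DMR. There were 5417 such genes, 1799 with a hyper-DMR and 3618 with a hypo-DMR. The remaining 2420 (30.9%) had at least 2 DMRs, 369 had at least 5 and 8 had at least 10. Genes with 2 or more DMRs had longer intervals, with a median of 4922 bp, against 3487 bp for genes with a single DMR. The hyper share of the DMRs was 33.2% in genes with 1 DMR and 28.3% in genes with 2 or more.

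Mixed-direction genes were the largest class among genes with several DMRs. They numbered 1365, or 56.4% (54.4% to 58.4%) of the genes with 2 or more DMRs, beside 924 all-hypo and 131 all-hyper genes. The hyper share of 28.3% in these genes gives 55.0% by arithmetic if the DMRs of a gene took their directions independently. By number of DMRs, 45.0% of genes with 2 DMRs were mixed, 57.9% with 3, 67.3% with 4, 80.6% with 5, 90.5% with 6 and 92.7% with 7 or more. The corresponding shares from the hyper share of each class were 43.4%, 58.0%, 66.8%, 76.8%, 88.0% and 90.9%, all inside the Wilson intervals of the measured shares. The gap between the DMRs of a gene also mattered, as given below for genes with exactly 2 DMRs. The other lists had 46.3% mixed genes against 48.4% by the same arithmetic (Ox1 in the HN field), 57.6% against 59.6% (WYG7 in the NN field) and 51.8% against 66.0% (WYG7 in the HN field).

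**Figure D3:**
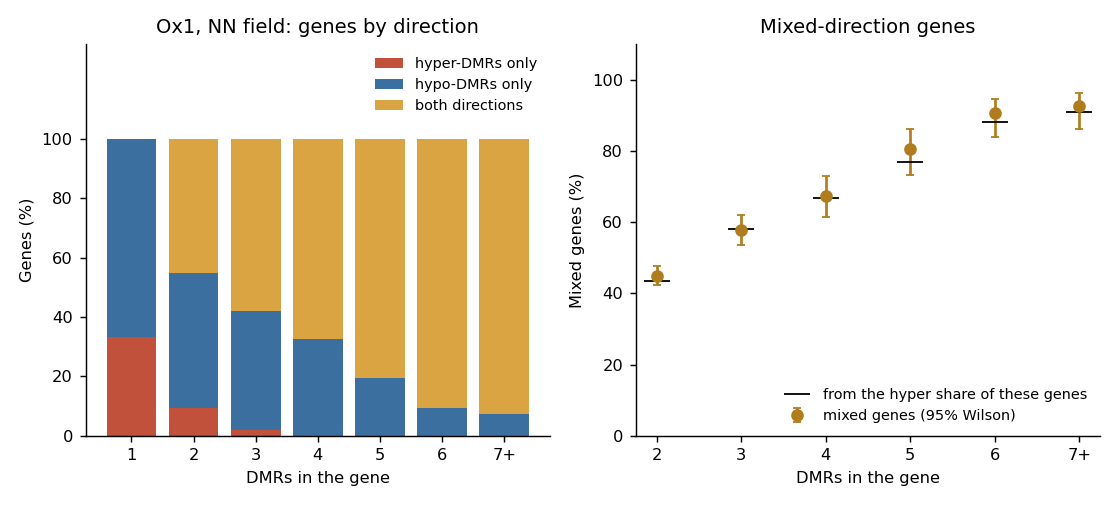
Left, percentage of listed genes with hyper-DMRs only, hypo-DMRs only or both directions, by the number of DMRs in the gene, for Ox1-LN against Ox1-HN in the NN field; right, percentage of mixed genes with 95% Wilson intervals (points) and the percentage that follows from the hyper share of the genes of that class (horizontal marks). The mixed share was 45.0% at 2 DMRs and 92.7% at 7 or more, and no gene with 4 or more DMRs had hyper-DMRs only.

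No gene with 4 or more DMRs was all hyper, whereas all-hypo genes had up to 9 DMRs. The hyper share of the DMRs was 24.3% in genes with 4 DMRs and 25.4% in genes with 5. From such shares alone all-hyper genes of this size would be rare. LOC_Os01g16440 (chr1:9334749-9336266, 1518 bp) was among the 9 genes with 3 hyper-DMRs and no hypo-DMR; these covered 43.1% of its interval, and it had 2 hyper-DMRs in Ox1 in the HN field. LOC_Os05g34340 (chr5:20353868-20356450) also had 3 hyper-DMRs and was listed elsewhere only in WYG7 in the NN field, with 1 hyper-DMR. At the other end, LOC_Os01g17360 (chr1:9989370-9996046, 6677 bp) had 9 hypo-DMRs over 35.3% of its interval. The same gene was mixed in the other comparisons, with 5 hyper-DMRs and 4 hypo-DMRs in Ox1 in the HN field, 3 and 4 in WYG7 in the NN field, and 4 and 5 in WYG7 in the HN field. LOC_Os01g60610 (chr1:35036685-35040901) had 8 hypo-DMRs and belongs to the all-hypo cluster on chromosome 1, with its neighbour at chr1:35041524-35048753, which had 8 as well. In each of the other 3 comparisons both genes held DMRs of both directions.

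Of the 1365 mixed genes, 585 had exactly 2 DMRs and so a single switch of direction along the interval. Among the 780 mixed genes with 3 or more DMRs, 334 had 1 switch, 275 had 2 switches and 171 had 3 or more. The median gap between neighbouring DMRs of opposite direction within a gene was 479 bp, 327 mixed genes had such a pair less than 100 bp apart and 40 had a pair that overlapped. Among the 1300 genes with exactly 2 DMRs, the mixed share was highest at a gap of 100 to 499 bp, with 172 of 320 genes (53.8%, 48.3% to 59.1%), and was 43.4% (39.1% to 47.8%) at 1000 bp or more. Where the DMRs overlapped it was 19.6% (11 of 56 genes, 11.3% to 31.8%), below the 43.4% that the hyper share of these genes gives. Hypo-DMRs were the majority in 586 mixed genes, hyper-DMRs in 114, and 665 had equal numbers. The largest number of switches was 6, in 7 genes. Among them were LOC_Os01g01260 (chr1:121302-128457), where 4 hyper-DMRs and 6 hypo-DMRs covered 40.4% of the interval, LOC_Os01g48874 (chr1:28032816-28052830, 3 hyper and 8 hypo) and LOC_Os03g57480 (chr3:32766960-32774050, 4 hyper and 5 hypo). LOC_Os12g26240 (chr12:15291273-15298427) had 5 hyper-DMRs and 4 hypo-DMRs and was the only gene with more hyper- than hypo-DMRs among the 5 mixed genes with the most DMRs of their rarer direction.

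The gene with the most DMRs was LOC_Os07g31870 (chr7:18932047-18953572, 21526 bp), with 2 hyper-DMRs and 10 hypo-DMRs. It had 4 hyper-DMRs and 1 hypo-DMR in Ox1 in the HN field, 2 and 5 in WYG7 in the NN field, and 8 and 4 in WYG7 in the HN field. Its DMRs covered 15.8% of a long interval, while LOC_Os02g22420 (chr2:13390144-13394364) held 1 hyper-DMR and 8 hypo-DMRs in 4221 bp, which covered 52.3% of it. LOC_Os11g47190 (chr11:28382800-28389955) had 1 hyper-DMR and 9 hypo-DMRs and LOC_Os03g36660 (chr3:20331619-20337479), in the largest cluster, 1 and 8. All of the 8 genes with 10 or more DMRs were mixed and had more hypo- than hyper-DMRs. Of the 14 genes with 9 DMRs, 13 were mixed and 1 was all hypo, and hypo-DMRs were the majority in 13 and hyper-DMRs in 1. In genes with 7 or more DMRs 26.8% of the DMRs were hyper, and from this share alone a hypo majority would be common. Over all DMGs the DMRs covered a median of 8.51% of the interval, and 60 genes had at least 50% covered. The highest cover was 99.3%, by 2 hypo-DMRs in an interval of 1216 bp at chr8:14802202-14803417, a gene listed in none of the other 3 tables.

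**Figure D4:**
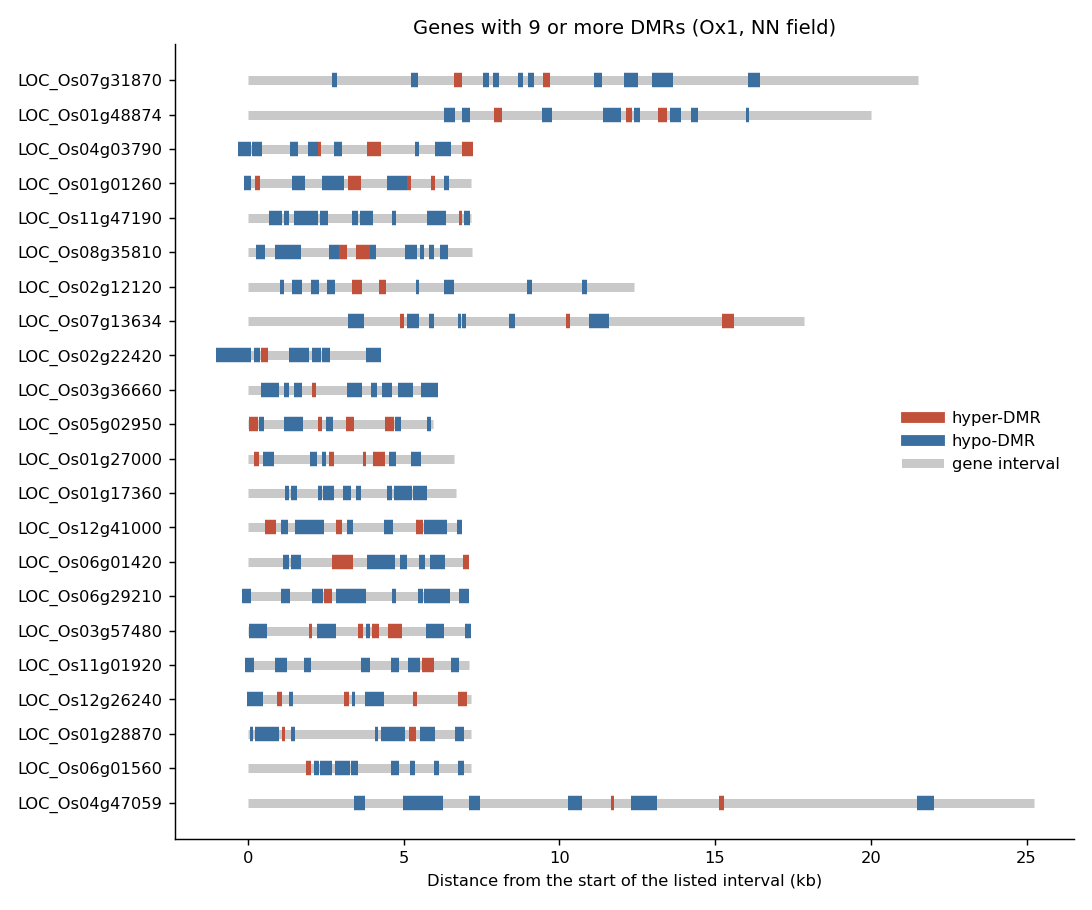
Position of hyper- and hypo-DMRs within the listed intervals (grey) of the 22 genes with 9 or more DMRs in Ox1-LN against Ox1-HN in the NN field; the horizontal axis is the distance in kb from the start of the interval, which holds the gene body and 1 kb of promoter, and since the tables give no strand the promoter can be at either end. Hypo-DMRs are the majority in 21 of the 22 genes, the exception being LOC_Os12g26240 with 5 hyper-DMRs and 4 hypo-DMRs, and LOC_Os01g17360 has hypo-DMRs only.

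Genes with many DMRs were concentrated in intervals of a few lengths. In bands of 50 bp of interval length the mean number of DMRs per listed gene had a median of 1.42 over the 127 bands with at least 20 genes, and 6 bands had a mean above 3. Genes of these 6 bands were 7.52% of the DMGs and 49.9% of the genes with 5 or more DMRs (184 of 369). The band with the highest mean, 7150 to 7199 bp, had 187 listed genes out of 225 in any table (83.1%, beside 40.9% over all lengths), and these had a mean of 4.32 DMRs. These bands were chosen after their values were seen and are given as a description.

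The commonest exact length was 7156 bp, shared by 105 genes of any table on all 12 chromosomes. Of these, 96 were DMGs here, with 120 hyper-DMRs and 314 hypo-DMRs, a mean of 4.52 per gene. There were 66 mixed genes among them, 26 with hypo-DMRs only and 4 with hyper-DMRs only. LOC_Os01g01260 and LOC_Os11g47190, named above, are of this length. LOC_Os12g26240 is of another recurring length, 7155 bp, shared by 20 genes of any table. In the other comparisons the 7156 bp genes were listed about as often, 97 in Ox1 in the HN field, 88 in WYG7 in the NN field and 98 in WYG7 in the HN field. Their directions there were 221 hyper and 120 hypo, 176 hyper and 152 hypo, and 192 hyper and 221 hypo, in the same order of comparisons. These counts are to be read beside the hyper shares of the whole lists, 75.4%, 64.5% and 45.9% in that order, and 33.7% here. An interval of 4292 bp was shared by 26 genes, of which 25 were DMGs here, with 15 hyper-DMRs and 75 hypo-DMRs. By contrast the second commonest length, 1327 bp with 46 genes, had 19 DMGs (41.3%), close to the share over all lengths, and a mean of 1.32 DMRs. Genes of identical length may be near-identical copies, between which short reads are hard to place; their sequences were not analysed here, so this was not tested, and the DMRs of these genes are uncertain to that extent.

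**Figure D5:**
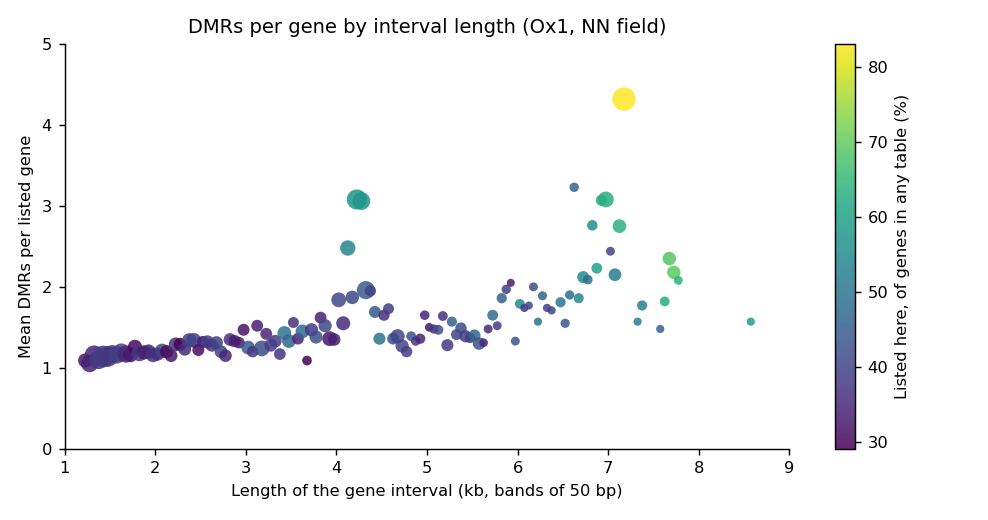
Mean number of DMRs per listed gene (vertical axis) by the length of the gene interval in kb (horizontal axis, bands of 50 bp with at least 20 listed genes, shown up to 9 kb) for Ox1-LN against Ox1-HN in the NN field; the area of a point is proportional to the number of listed genes and its colour gives the percentage of the band's genes of any table that were listed here. The band of 7150 to 7199 bp lies at 4.32 DMRs and 83.1%, and the other 5 bands above 3 lie between 4200 and 4299 bp and between 6600 and 6999 bp, while the median of the bands is 1.42.

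Along the order of the 19182 genes of any table, DMGs fell into runs. With 40.9% of these genes listed, runs arise without any clustering, and the number that this share alone gives was not worked out. Genes without a DMR in any comparison are skipped, so neighbours in this order need not be adjacent on the chromosome. There were 4198 runs, of which 2268 were a single gene, and 194 runs of 5 or more held 1158 genes. The longest had 11 genes and there were 3 of them. At chr10:7148647-7240256 (91.6 kb) 9 of the 11 genes had hypo-DMRs only, 1 had hyper-DMRs only and 1 was mixed. At chr1:4806985-5183614 the numbers were 7 hypo-only, 2 hyper-only and 2 mixed genes, while at chr1:21137870-21294697 hyper-only genes were the majority with 6, beside 4 hypo-only genes and 1 mixed gene. Over all lengths and positions, the other tables list 54.9% (Ox1 in the HN field), 57.0% (WYG7 in the NN field) and 56.0% (WYG7 in the HN field) of the genes of any table. Of the 11 genes on chromosome 10, 7 were also listed in Ox1 in the HN field, 6 in WYG7 in the NN field and 7 in WYG7 in the HN field.

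Neighbouring DMGs of a single direction each shared that direction in 1584 of 2399 pairs (66.0%, 64.1% to 67.9%). The shares of hyper-only and hypo-only genes among these pairs give 58.6%. Part of these pairs have a DMR in common because their intervals overlap. Without them 1254 of 2069 pairs (60.6%, 58.5% to 62.7%) agreed, against 58.2% from the shares among the remaining pairs. Once shared DMRs were left out, the share given by arithmetic lay just below the interval of the measured one.

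A large minority of the DMRs overlapped a DMR of Ox1 in the HN field. These were 7344 DMRs, 37.2% of the present list and 28.5% of the other list, at an overlap of at least 1 bp. Of 7895 overlapping pairs 44.8% (43.7% to 45.9%) had the same direction. The direction shares among the overlapping pairs, not those of the whole lists, give 45.2%. The largest class was hypo here and hyper in the HN field, with 3401 pairs, followed by 1806 pairs hypo in both, 1732 hyper in both and 956 hyper here and hypo there. With WYG7 in the NN field 7171 DMRs overlapped (36.3% of this list, 26.9% of the other), and 49.0% of pairs had the same direction, against 48.7% from the shares. With WYG7 in the HN field the corresponding values were 41.1%, 28.1% and 53.9%, the last against 51.1%. For Ox1 in the HN field and WYG7 in the NN field, overlapping pairs therefore shared a direction no more often than the direction shares among these pairs give. For WYG7 in the HN field the arithmetic share lay below the interval of the measured one (52.8% to 54.9%).

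There were 5950 DMRs (30.1%) that overlapped none of the other 3 lists and 1889 (9.56%) that overlapped all 3. The hyper share was 32.2% in the first set and 33.2% in the second, with overlapping intervals. The median length was 199 bp for DMRs of this list alone, and 291 bp for those in all 4. DMRs in all 4 lists also lay in a listed gene more often, 68.6%, against 57.3% of DMRs of this list alone. Of the 627 hyper-DMRs in all 4 lists, 86 were hyper in all the others and 47 were hypo in all the others. Of the 1262 hypo-DMRs, 115 were hypo and 129 were hyper in all the others. Over the whole lists the hyper share was 75.4% in Ox1 in the HN field. It was 64.5% in WYG7 in the NN field and 45.9% in WYG7 in the HN field. The counts are to be read beside these shares, and what the shares alone give was not worked out.

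At the level of genes, 1019 DMGs (13.0%) were listed in this table only and 2941 (37.5%) in all 4. Genes of this table only mostly had a single DMR, with 6.67% having 2 or more, while 55.5% of the genes in all 4 tables had 2 or more here. Their intervals were also shorter, with a median of 3376 bp, against 4703 bp for the genes in all 4 tables. A longer interval can hold more DMRs in any comparison, so part of this contrast is built in. Of the 1019 genes, 687 had hypo-DMRs only, 300 had hyper-DMRs only and 32 were mixed. The gene with the most DMRs among them was LOC_Os07g17910 (chr7:10594376-10601103), with 1 hyper-DMR and 3 hypo-DMRs.

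Without the reference gene OsActin, the loci with an identifier in the primer list of the study are 15 in all. They include genes of N transport, DNA methylation and transcription factors. Of the 9 that are in any of the 4 tables, 0 were DMGs here, beside the 40.9% over all genes of any table. The study chose part of these loci from its own DMG results, so the count describes them and no more. OsATL16 (LOC_Os01g41400), of the amino acid transporter-like family, had 1 hyper-DMR and 1 hypo-DMR in Ox1 in the HN field. It had 2 hypo-DMRs in WYG7 in the NN field, and 1 hyper-DMR and 2 hypo-DMRs in WYG7 in the HN field. The DMR of the present list nearest to OsATL16 was a hyper-DMR 1918 bp away. OsDRM1b (LOC_Os12g01800) had 1 hyper-DMR in WYG7 in the NN field, and its nearest DMR here was a hypo-DMR 3497 bp away. OsAGO1a (LOC_Os02g45070), an Argonaute that binds small RNAs, and OsAMT4 (LOC_Os03g53780), an ammonium transporter, were listed for WYG7 in the NN field alone, with 1 hyper-DMR in OsAGO1a and 1 hypo-DMR in OsAMT4. The nearest DMR here was 17084 bp from OsAGO1a and 12985 bp from OsAMT4. The remaining 6 loci were in no table. They are OsNAR2.1, the gene overexpressed in Ox1, and the methyltransferase genes OsMET1, OsCMT2, OsCMT3, OsDRM2 and OsDRM3. No DMR was thus assigned to OsNAR2.1 in any of the 4 comparisons; what coverage it had is unknown.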

How the data were processed

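Leaf DNA of 8 libraries was sequenced after bisulfite conversion. According to the methods, the authors filtered and trimmed reads, used Bismark 0.9.0 for alignment (genome build IRGSP-1.0) and SMART for DMR calls. Each call set LN seed against HN seed within 1 line and 1 field, and had to pass minimum values for read coverage, number of cytosines, size of the region and methylation difference, and a p-value limit. A gene was listed where a DMR overlapped its body or 1 kb promoter. The deposited values are positions in bp (of DMRs and gene intervals), a direction and gene identifiers; they carry no other unit. The version of the gene annotation is not given in the sources used here.

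Coordinates were taken as 1-based and inclusive, which makes the shortest DMR 100 bp long. A gene was credited with a DMR when they shared at least 52 bp, the lowest value seen among listed genes; 114 genes of other tables overlapped a DMR by at most 51 bp and are not listed. Counts, gaps, clusters, windows of 500 kb, overlaps of at least 1 bp and Wilson 95% intervals came from Python 3.11.15 (numpy 2.4.6, pandas 2.3.3; plots from matplotlib 3.10.9). The functions were tested on simulated lists and recovered 6 of 6 planted quantities. Shares "from the direction shares" are arithmetic, not tests.

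Named genes were those with the most DMRs, the most mixed, the most all-hyper and all-hypo, the most covered, those with the longest DMRs, those in the longest runs and densest windows, and loci whose identifiers the study gives; not all are printed. The members and lists were chosen with earlier results of these data known. The length bands were chosen after seeing the data. No reference sequence of the build was used here, so DMRs by exon, intron or UTR, gene groups by product name and base composition were not analysed, and no sequence is shown.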

Additional observations from a re-analysis of the deposited data

Results flagged for a closer look

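The hyper share of DMRs of LN against HN differed in direction between fields and lines. It was 33.7% in Ox1 in the NN field, below 50%, and 75.4% in Ox1 in the HN field, above 50%. In WYG7 in the NN field it was 64.5%. With 1 library a side, the difference was not tested, and effects of field or line cannot be told apart from variation between libraries.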

How the results depend on the processing

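Of 27 alternative values, 12 stayed within 1.5 times a count or within the 95% interval of a share or of the median gap. The other 15 moved further, and the hyper share stayed below 50% in all of its alternatives. Some of the 12 could not move by construction. Merging leaves the directions found in a gene as they were (1365 mixed genes). Intervals of the present gene table alone gave the same 7451 DMRs outside, since no other gene met the overlap rule. The number of study loci among the DMGs could only stay at 0. With DMRs of at least 200 bp only, there were 11592 DMRs, of which 31.6% were hyper, 1420 genes with 2 or more DMRs, 700 mixed genes, a median gap of 10994 bp, 56.5% of neighbours of the same direction, 3844 DMRs outside listed intervals, and shared DMRs of 31.0% (Ox1 in the HN field) and 30.4% (WYG7 in the NN field). Fewer DMRs enter by construction. Merging same-direction DMRs within 100 bp gave a hyper share of 34.4%, a median gap of 6218 bp and 53.2% of neighbours of the same direction, and weighting by length a hyper share of 31.6%. An overlap of at least 50% of the DMR gave shared DMRs of 23.7% (Ox1 in the HN field) and 23.6% (WYG7 in the NN field). Leaving out genes of 7150 to 7199 bp, an alternative chosen after seeing the data, left 2258 genes with 2 or more DMRs, 1242 mixed genes and 278 of 369 genes with 5 or more.

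No paired analysis was possible because each condition has 1 library, and for the same reason there was no fit without a library. DMRs by annotated feature were not run. Coverage and levels are not in the lists, so depth per DMR is unknown.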
